A study of Caenorhabditis elegans with 8 samples.

Results

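The comparison described here set worms kept on the ground in flight-type hardware against worms that stayed in an incubator and were not transported. It rests on 4 of the 8 microRNA arrays of a Shenzhou-8 spaceflight series in Caenorhabditis elegans, chosen by the labelled condition: a ground control array and a no-transport control array for each of 2 strains. One strain was wild-type N2 Bristol. The other, LS292, had the dys-1(cx18) mutation in the worm dystrophin gene. Ground control worms were loaded as dauer larvae, the stress-resistant resting stage, into a static slot of the BIOBOX container at a test centre in Beijing, were held at 23 °C for 16.5 days in a run 2 days later than the flight, and were collected 7 h after its end. The other control carries the title of a transport control, but the labels also mark it as not transported and kept in an incubator at a university in Dalian. The sources used here give no duration, temperature, stage or collection time for it, so hardware, site, journey, timing and stage at collection cannot be told apart. Total RNA of whole worms, 1 µg per array, was labelled with Hy3, so fewer cells of a type and less RNA per cell cannot be told apart either. Each strain and condition had 1 array. Because worm material was scarce, the design repeated spots but not samples.

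MicroRNAs are short RNAs that guide Argonaute proteins to messenger RNAs with matching sites, which lowers the output of those messages. In worms they were first known for developmental timing: let-7 and its family, with lin-4, drive the switches between larval stages, and several miRNAs change with entry into and recovery from dauer. Families share the seed at their 5′ end and often act redundantly.

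The array held 156 probes with a C. elegans name, each printed as 4 spots, and an intensity here is the median of the 4 spots after subtraction of the local background. A probe counted as detected at 50 or more, and 20 of the 156 were detected on 2 or more of the 8 arrays of the series. Those 20 are described below. The names are those in the deposited file. Of the 96 empty spots per array, between 0 and 3 reached 50 on the 4 arrays, which shows how often a single spot without a probe passed the minimum. Detection used the median of 4 spots, and empty spots do not show how near dim probes came to 50. On the N2 no-transport array their median was 3, against 18.25 for the named probes that were not detected. Precision is limited by the small number of arrays.

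At the minimum of 50, detection was slightly more frequent without transport and differed in membership. The N2 ground array detected 17 named miRNAs and the N2 no-transport array 19. In LS292 these numbers were 12 and 15. The N2 gap depended on the minimum, with 24 on the ground and 55 without transport at a minimum of 25. At a minimum of 100 it was reversed, with 11 on the ground and 8 without transport, and LS292 had 6 on each array. In N2, 10 miRNAs were detected on both arrays, which is 58.8% of the ground list and 52.6% of the no-transport list. In LS292, 11 were shared, 91.7% and 73.3% of the lists. On all 4 arrays 8 were detected: let-7, miR-84, miR-52, miR-55, miR-124, miR-230, miR-257 and miR-1823. No miRNA was detected on both ground arrays and neither no-transport array. Of the 156, 3 were detected on both no-transport arrays and neither ground array: miR-788, miR-799 and miR-1824. Dim probes as a class also lay higher without transport, as described below.

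**Figure D1:**
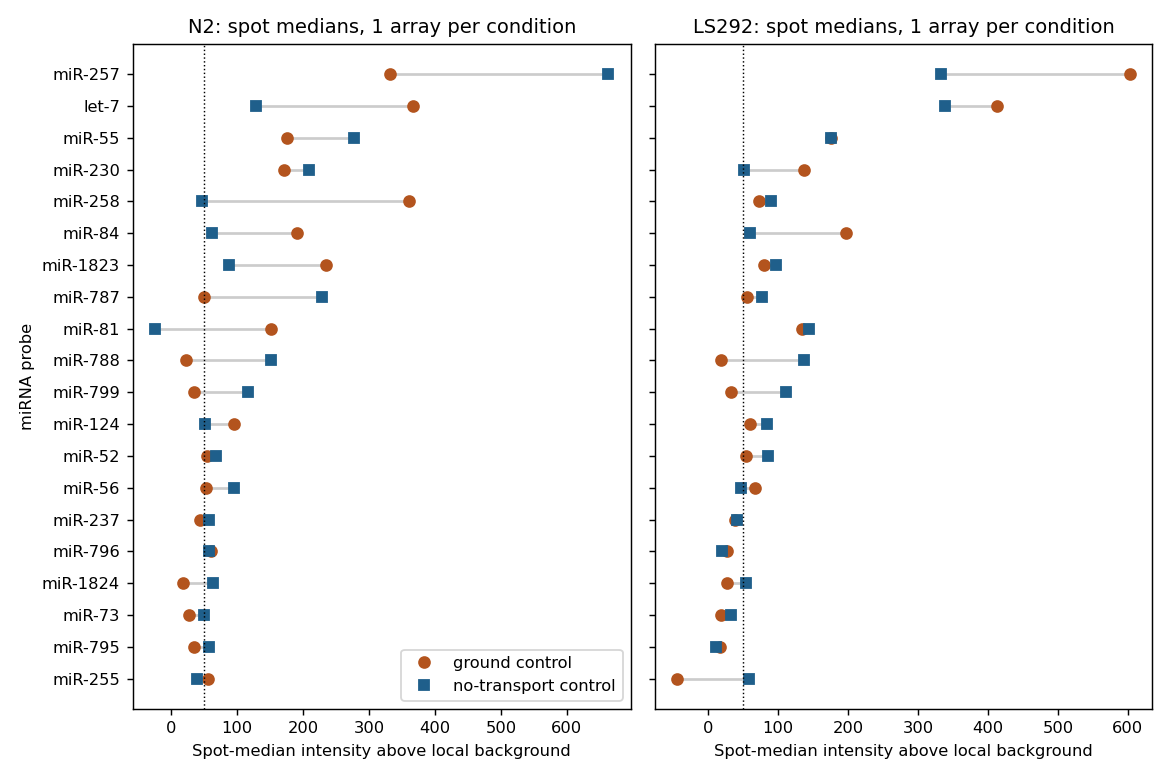
Spot-median intensity above local background (x axis) of the 20 detected miRNA probes (y axis) on the ground control array (circles) and the no-transport control array (squares) of N2 (left) and LS292 (right); each point is the median of 4 spots on 1 array, and the dotted line marks 50. MiR-788 and miR-799 lie left of the line in both ground samples and at 111.5 to 151 without transport, while miR-84 lies at 190.5 and 197.5 on the ground and at 62 and 59.5 without transport.

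MiR-788 was dim on both ground arrays and clear of the minimum on both no-transport arrays. Its intensity was 23 in N2 ground and 18 in LS292 ground, against 151 and 137 without transport. The conditions therefore did not overlap. In N2 the 4 ground spots ran from 3 to 36 and the 4 no-transport spots from 120 to 246. In LS292 the ground spots ran from 16 to 23, and 3 of the no-transport spots lay at 132, 142 and 185, with the last at -190. With the ground values raised to the minimum of 50, miR-788 was at least 3.02-fold brighter without transport in N2 and at least 2.74-fold in LS292.

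MiR-799 had the same order of conditions in both strains. It stood at 34 and 32.5 on the ground arrays of N2 and LS292 and at 116 and 111.5 without transport. Its ground spots reached at most 64 in N2 and 44 in LS292, and its no-transport spots began at 93 and 53. It was the 1 detected miRNA whose ground spots all lay below the no-transport spots in both strains, 5% of the 20. Of all 156 named probes, 14.1% had this separation, so it does not set miR-799 apart. MiR-799 was at least 2.32-fold brighter without transport in N2 and at least 2.23-fold in LS292.

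MiR-1824 and miR-787 had lower values in ground samples too, but less evenly. MiR-1824 stood at 18.5 and 26.5 on the ground and just above the minimum, at 63 and 54.5, without transport. MiR-787 stood at 49.5 in N2 ground against 228.5 without transport, at least 4.57-fold brighter. In LS292 it was 56 against 77.5, a ratio of 1.38, and its spots overlapped. The miR-787 gap was therefore wide in N2 and narrow in LS292; whether the strains differed in it was not tested.

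**Figure D2:**
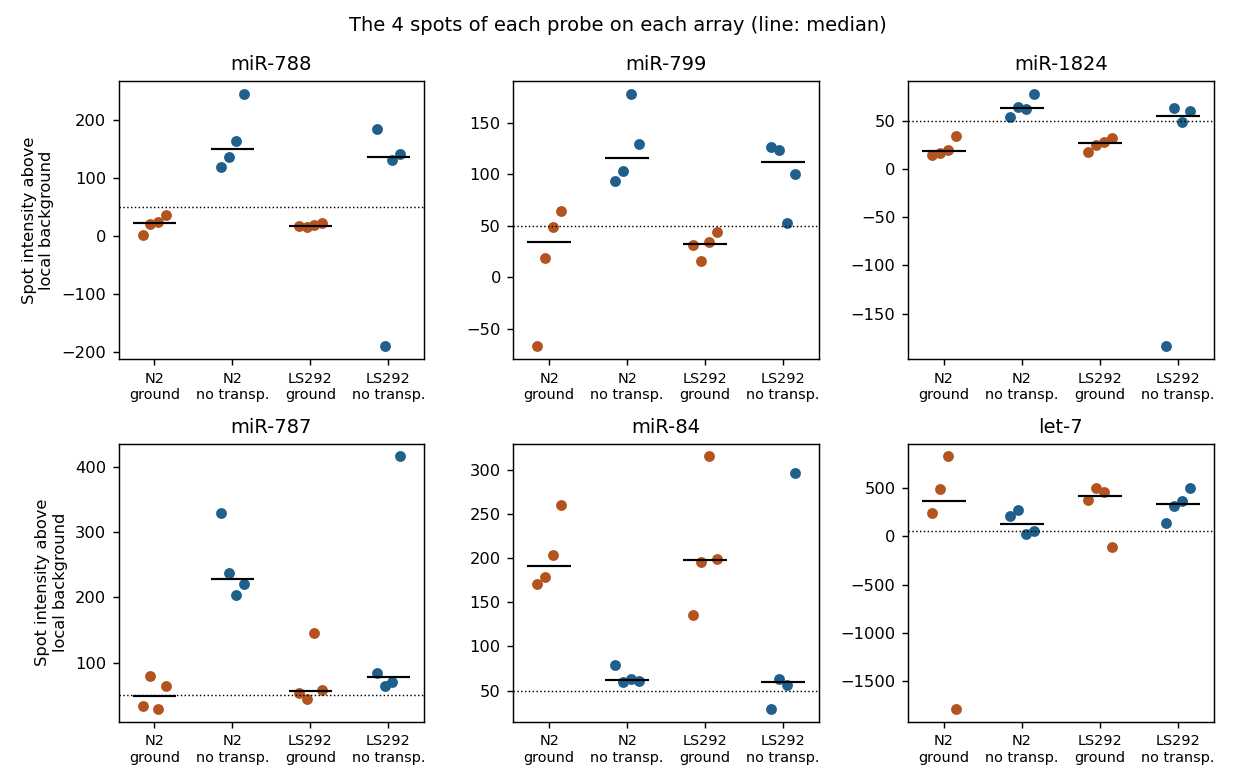
Individual spot intensities above local background (y axis) of 6 miRNA probes on the 4 arrays (x axis), with ground control in brown and no-transport control in blue; the horizontal bar is the median of the 4 spots and the dotted line marks 50. The spots are technical repeats on 1 array. MiR-788, miR-799 and miR-1824 are higher without transport in both strains apart from stray low spots, and miR-84 is higher on the ground apart from 1 LS292 no-transport spot at 296.

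Dim probes as a class shifted in the same direction as these 4 miRNAs, whose ground values lay at or below 56. The 136 named probes that were not detected had a median intensity of -7.5 on the N2 ground array and 18.25 on the N2 no-transport array. In LS292 these medians were -4.5 and 7.5. Of all 156 named probes, 113 were lower on the ground in both strains and 6 were higher. All 4 ground spots lay below all 4 no-transport spots for 50.6% of the 156 probes in N2, 28.2% in LS292 and 14.1% in both. The 2145 probes without a name had 42.8%, 20.4% and 10.4%, and the opposite separation occurred in 5.64%, 2.28% and 1.07% of them. Among the 20 detected miRNAs the shares with lower ground spots were 30% in N2 (6 miRNAs), 5% in LS292 and 5% in both, no higher than among all named probes. Separated spots in this direction are thus no distinction of the detected miRNAs.

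Set against that shift, miR-788 and miR-799 still differed while miR-1824 came closer. After subtraction of each array's median over the undetected probes, miR-788 was 30.5 and 22.5 on the ground and 132.75 and 129.5 without transport. MiR-799 was 41.5 and 37 against 97.75 and 104. MiR-1824 was 26 and 31 against 44.75 and 47. Ground minus no transport, the raw difference of miR-788 reached -128 for N2 and -119 for LS292, in each strain rank 3 from the lowest of 156. The undetected probes had differences from -104.5 to 109 in N2 and from -158.5 to 125.5 in LS292, so miR-788 lay outside their range in N2 and inside it in LS292. MiR-799, at -82 and -79, lay inside it in both strains.

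**Figure D3:**
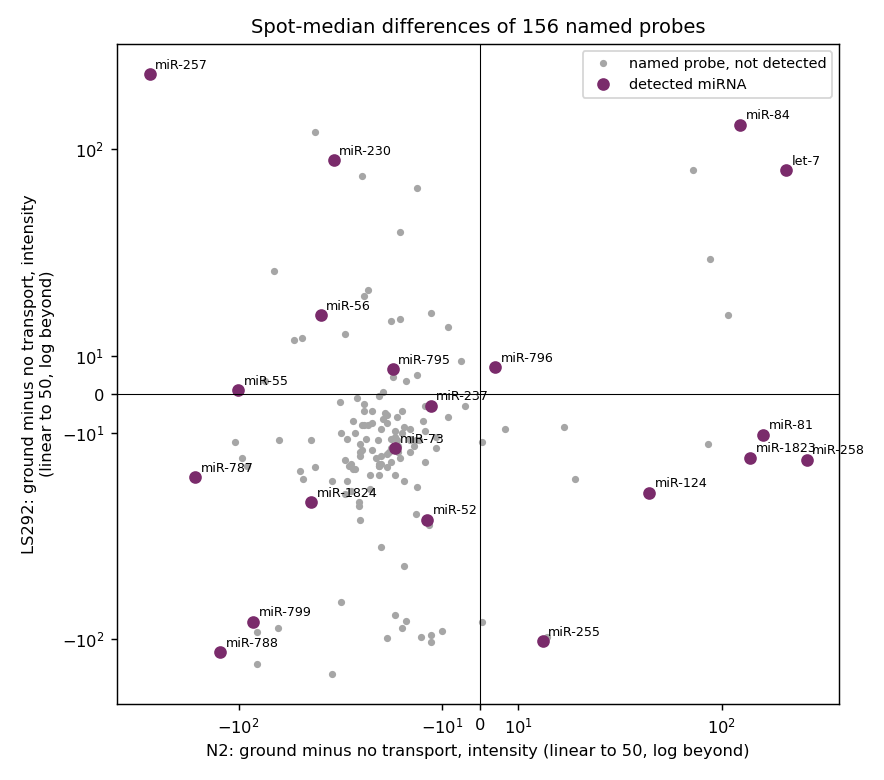
Difference in spot-median intensity, ground minus no transport, in N2 (x axis) and LS292 (y axis) for the 156 named probes, on axes that are linear to 50 and logarithmic beyond; labelled points are the 20 detected miRNAs. Most undetected probes crowd the lower left, with median differences of -25.25 and -12.5, and miR-84 and let-7 stand alone among the labelled points at the upper right apart from miR-796 near 0.

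MiR-84 went the other way. A let-7 family member that acts in the larval epidermis, it measured 190.5 in N2 and 197.5 in LS292 on the ground, and 62 and 59.5 without transport. It was thus 3.07-fold brighter on the ground in N2 and 3.32-fold in LS292, and all 4 values passed the minimum. In N2 the spots ran from 171 to 260 on the ground and from 60 to 79 without transport. In LS292 they ran from 136 to 315 on the ground and from 29 to 63 without transport, apart from 1 spot at 296. MiR-84 was the only miRNA of the 20 whose N2 ground spots all lay above the no-transport spots, 5% of the 20 against 1.92% of the 156. Its differences of 128.5 and 138 exceeded those of all 136 undetected probes in each strain, but those probes are dim. Bright probes leaned towards the ground: of 177 unnamed probes at 50 or more on all 4 arrays, 61.0% were higher on the ground in both strains and 24.3% were 2-fold higher in both. A ratio at least as high as that of miR-84 was found in 29.9% of the 177 in N2, 12.99% in LS292 and 9.04% in both strains. Many of the 177 were far brighter than miR-84, and the shares were not counted at its brightness. The median log2 ratio in N2 was 0.35 in the dimmest 59 of them and 1.43 in the brightest 59. In LS292 it was 0.56 and 0.58.

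Let-7 itself, the founding member that promotes the larval-to-adult switch, was brighter on the ground by a smaller and less steady margin. It measured 367 in N2 ground and 413.5 in LS292 ground, against 128 and 338 without transport. The ratios were 2.87 in N2 and 1.22 in LS292. Of the 177 bright unnamed probes, 32.8% in N2, 64.4% in LS292 and 27.1% in both strains had a ratio at least as high. The let-7 ratios therefore do not stand apart from the lean of bright probes towards the ground. The N2 ground spots were 243, 491, 826 and -1789, and the LS292 spots overlapped between conditions. The last of the 3 detected family members, miR-795, measured 34 and 17 on the ground and 57 and 10.5 without transport. Only its N2 no-transport value reached 50, so no direction can be given for LS292. The other listed members (miR-48, miR-241, miR-793 and miR-794) stayed below 50 on all 4 arrays, with a highest value of 28.5 for miR-793. The summed intensity of the 7 family probes was 560 and 574.5 on the ground and 309 and 434.5 without transport.

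The miR-51 family, abundant miRNAs that embryos need, had 3 detected members and none that moved alike in both strains by 2-fold. MiR-55 measured 176 on each ground array, and 276.5 in N2 and 175 in LS292 without transport. MiR-52 measured 54 and 53.5 on the ground and 68 and 86 without transport. MiR-56 measured 52.5 and 67 on the ground and 94.5 and 46.5 without transport. The N2 no-transport array was thus the highest of the 4 for miR-55 and miR-56, and the 2 LS292 values of miR-55 differed by 1. The genes of miR-55 and miR-56 are direct neighbours in the RefSeq annotation of assembly WBcel235, where 19 of the 20 names matched a gene.

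Several miRNAs changed order between the strains when all 4 spots were used. MiR-257, which had the highest single value of the named probes on these arrays, measured 331.5 on the ground and 662.5 without transport in N2, and 603 and 333 in LS292. Its spots ran from 20 to 1584 on the N2 ground array alone, which covers both conditions. MiR-258 measured 360.5 against 46.5 in N2, at least 7.21-fold brighter on the ground, and 72 against 89 in LS292. MiR-1823 measured 234.5 against 87.5 in N2 and 80 against 96.5 in LS292. MiR-230 measured 170.5 against 209 in N2 and 137.5 against 51.5 in LS292, a ratio of 2.67. For these 4 miRNAs the conditions overlapped when the strains were pooled.

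The remaining detected miRNAs differed little or were poorly measured. MiR-124, a miRNA of sensory neurons, measured 95.5 and 59 on the ground and 51 and 84.5 without transport. MiR-81, of the bantam-like miR-58 family, measured 151.5 and 133.5 on the ground and -24 and 144 without transport. The low N2 value of miR-81 came from spots at -645, -102, 54 and 60. MiR-237, of the lin-4 family, measured 43.5 and 38.5 against 56.5 and 41.5. MiR-73 measured 27.5 and 18 against 50 and 32, and miR-796 measured 60.5 and 26.5 against 56.5 and 19.5. MiR-255 measured 56 and -44.5 against 39.5 and 58.

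Counted by 2-fold differences, miR-788 and miR-799 passed in both strains on the spot medians and on the authors' scale, and miR-84 on the spot medians alone. None passed after normexp and quantile normalization, but no miRNA could: the LS292 differences on that scale ran only from log2 -0.46 to 0.30. At a minimum of 100 none passed either, but these 3 miRNAs were too dim to be 2-fold apart in both strains there. At a minimum of 25 on the authors' scale, miR-1824 passed beside miR-788 and miR-799. On spot medians as deposited, with values below 50 raised to 50, 3 miRNAs of 20 were 2-fold lower on the ground in N2 (15%) and 5 were 2-fold higher (25%: let-7, miR-84, miR-81, miR-258 and miR-1823). In LS292, 2 of 16 were lower (12.5%) and 2 of 16 higher (12.5%: miR-84 and miR-230). In both strains, miR-788 and miR-799 were lower (12.5% of 16) and miR-84 was higher (6.25% of 16).

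The authors' normalized values divide each array's intensities by 1 constant, and this moved the N2 balance. The constant was 234.5 for N2 ground and 128 for N2 without transport, a ratio of 1.83. In LS292 it was 197.5 and 175, a ratio of 1.13. Each constant equals the array's median over the 5 miRNAs detected on all 8 arrays: let-7, miR-55, miR-84, miR-257 and miR-1823. That median fell on miR-1823, let-7, miR-84 and miR-55 in that order. Let-7 and miR-84 are thus part of the scale on which they are compared. On this scale 11 of 19 miRNAs were 2-fold lower on the ground in N2 (57.9%) and 1 was higher (5.26%, miR-258). In LS292 the counts were 2 of 16 each way (12.5% and 12.5%). MiR-788 and miR-799 were lower in both strains (13.3% of 15), and none was higher in both (0% of 15). The N2 ratio of miR-84 shrank from 3.07 to 1.68, while its LS292 ratio was 2.94.

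In the authors' deposited table, miR-788 has a fold of 12.03 for N2 and 8.59 for LS292, no transport over ground. For miR-799 the authors' deposited table gives 6.25 and 3.87. For miR-787 the authors' deposited table gives 8.46 and 1.56. Because ground intensities of 18 to 49.5 entered most of these folds, they are ratios to values below the minimum of 50. The authors' deposited table gives 0.60 and 0.34 for miR-84.

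A test over both strains found no miRNA past the threshold. Background-corrected, quantile-normalized log2 values of the 8 arrays were fitted in limma with additive terms for condition and strain. The 4 conditions were static flight, 1g centrifuge flight, ground control and no-transport control. None of the 20 passed an adjusted p of 0.05 (0 called, 0%), while 1 of 20 (5%, miR-787) had an unadjusted p below it. The strains stood in for replicates here, so the spread behind the p-values mixes array-to-array noise, which may be technical, with strain-specific responses. It also takes in the flight arrays, and these parts cannot be told apart. MiR-787 had a log2 difference of -0.45 (SE 0.13, limma adjusted p 0.235), ground minus no transport. MiR-55 had -0.49 (SE 0.23) and miR-84 had 0.46 (SE 0.19), each with a limma adjusted p of 0.328. For miR-788 and miR-799 the fit gave -0.26 (SE 0.12, limma adjusted p 0.328) and -0.24 (SE 0.13, limma adjusted p 0.333).

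On that log2 scale the differences of miR-788, miR-799 and miR-84 were far smaller than their log2 intensity ratios. This was not limited to dim values. MiR-84, at 190.5 in N2 ground, had a log2 ratio of 1.62 in N2 by spot medians and 0.62 on that scale. MiR-1824, lower on the ground by spot medians in both strains, had a fitted difference of 0.02 (SE 0.11, limma adjusted p 0.892), with a negative sign under 10 of 21 alternatives. Its LS292 no-transport spots lay at 63, 49, 60 and -184. Summarizing the spots by their median instead of averaging moved miR-1824 to -0.059, and so did dropping high-background spots. The same changes took miR-788, with an LS292 no-transport spot at -190, from -0.26 to -0.41 and -0.38. How far single spots or the scale set these differences was not tested. For miR-788, 6 of 21 alternatives passed the limma threshold, with differences from -3.35 to -0.13 and adjusted p from 0.00437 to 0.917; 2 of the 6 were chosen after seeing the data. MiR-84 was positive under each of 22 alternatives, with a lowest difference of 0.15, and passed under 1 (limma adjusted p 0.0458, range 0.0458 to 0.917), a setting chosen after seeing the data. MiR-787, miR-799 and miR-55 kept a negative sign under every alternative in which they were tested. Leaving out the LS292 ground array gave calls for miR-258 (log2 0.94) and miR-55 (log2 -0.84), each with a limma adjusted p of 0.0464, and those values then come from N2 alone on the ground side.

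**Figure D4:**
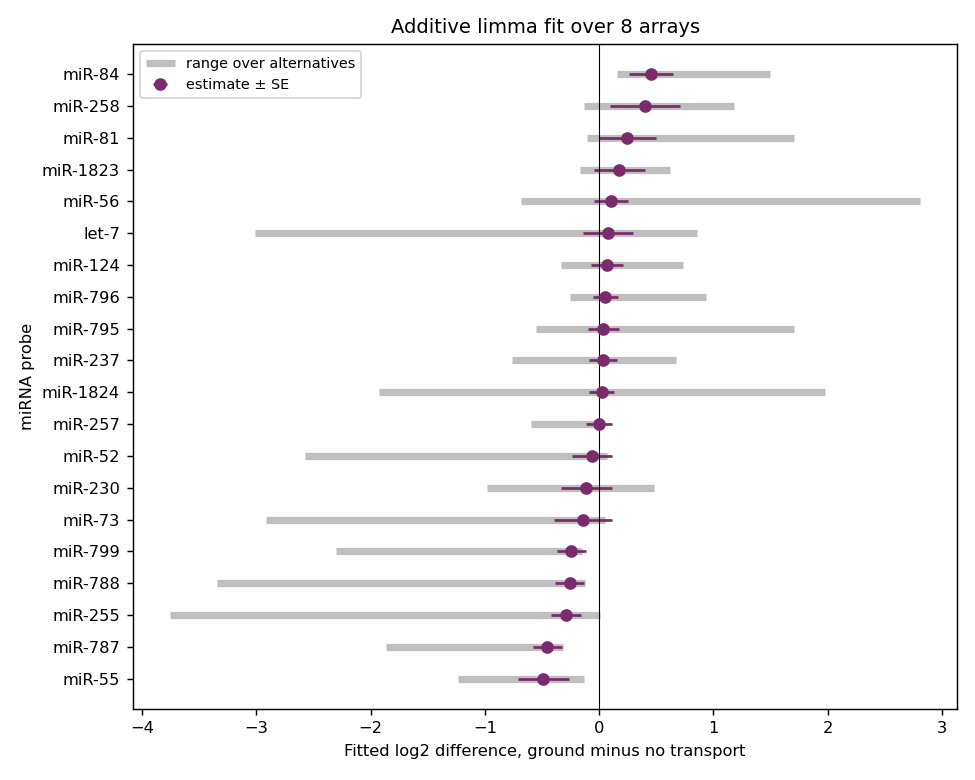
Fitted log2 difference, ground minus no transport (x axis), of the 20 detected miRNAs (y axis) from the additive limma fit over 8 arrays, with bars of 1 SE; the grey bars span the values under all alternatives. MiR-84 lies right of 0 and miR-787, miR-788, miR-799 and miR-55 lie left of 0 over their whole range. The range of every other miRNA spans 0.

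The 2 strains agreed only loosely on the fitted scale. Of the 20 miRNAs, 6 were lower on the ground in both strains (miR-787, miR-788, miR-799, miR-55, miR-255 and miR-73) and 4 were higher in both (miR-84, miR-81, miR-796 and miR-124). A further 7 had opposite signs and 3 (let-7, miR-237 and miR-257) a difference of exactly 0 in a strain. Such a 0 arises when a probe has the same rank on both arrays before quantile normalization, and it does not mean equal intensity. MiR-257 was given log2 9.08 on all 4 arrays, although its spot medians ran from 331.5 to 662.5. Its fitted difference therefore says nothing about a change. The N2 differences spread more widely, from -0.82 to 1.03, than those of LS292, from -0.46 to 0.30. The fitted directions differed in part from those of the spot medians. By spot medians, miR-55, miR-81, miR-124 and miR-255 did not go the same way in both strains. MiR-52, miR-237 and miR-1824 were lower on the ground in both strains by spot medians, and let-7 was higher in both.

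Among the listed families and tissue miRNAs few could be compared at all. The let-7 family had 3 tested members, all with positive fitted differences and a median of log2 0.08, beside 0.03 over all 20 tested. That of let-7 was negative under median scaling (-0.16), quantile normalization over all probes (-0.34) and plain background subtraction (-3.01), and that of miR-795 under median scaling (-0.064), so the family's common sign depends on the scale. In the miR-51 family, the sign was positive for miR-56 and negative for miR-52 and miR-55 (median -0.07), and miR-56 was negative under median scaling too (-0.035). The lin-4, miR-58 and miR-72 families had 1 tested member each, with 0.03 for miR-237 (-0.071 under median scaling), 0.25 for miR-81 and -0.14 for miR-73. None of these passed the threshold. The lists were chosen with earlier results of these data known.

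The listed markers of muscle, intestine, glia and embryo were missing in both conditions. Of the neuronal and epidermal ones, described above, miR-124, let-7 and miR-84 were detected on all 4 arrays, while miR-48 and miR-241 were not detected. The muscle miRNA miR-1 reached at most 11.5 on the 4 arrays, the intestinal miR-60 at most 6, the glial miR-228 at most 11.5 and lin-4 at most 18.5. The 8 embryonic miR-35 family probes stayed at or below 48. None of the 9 stress and lifespan miRNAs or of the 6 linked to dauer, arrest and starvation was detected, with a highest value of 39.5 for miR-34 in N2 without transport. The neuronal miRNA lsy-6 reached 101 in N2 ground and lay between -50 and 33 on the 3 other arrays. A muscle, intestinal or dauer difference between the controls could therefore not be measured on these arrays.

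The flight arrays place both controls. They came from 2 treatments, static flight (1.92 mGy) and 1g centrifuge flight (2.27 mGy), with 1 array per strain each, and are pooled here. For miR-788, the flight values of 42 to 72.5 lay above both ground values and below both no-transport values. For miR-799 the flight values of 33 to 72 and the ground values overlapped, and both no-transport values lay above all others. For miR-84 both no-transport values lay below the other 6, and the flight values of 76.5 to 201.5 spanned those of the ground. For let-7 both no-transport values, 128 and 338, also lay below the other 6, of which the lowest was 343. MiR-1824 had its no-transport values, 54.5 and 63, above the other 6, of which the highest was 52.5. It reached 50 on 1 flight array and no ground array, so it was among the 20 only because of the no-transport arrays. That selection favoured its place at the top. Such a placing was common among dim probes: both no-transport values lay above the other 6 for 3 of the 20 miRNAs (15%), 52 of the 156 named probes (33.3%) and 49 of the 136 undetected ones (36.03%). Both ground values also lay below all others, as for miR-788, in 17 of the 156 (10.9%). Placing at the top of the series therefore does not set these miRNAs apart. Both no-transport values lay below the other 6 for let-7 and miR-84 alone among the 156 (1.28%), and for 64 of 2145 unnamed probes (2.98%). The 2 were 10% of the 20 detected miRNAs, and 0 of the 136 undetected probes had this placing. Dim probes were mostly higher without transport and could seldom place this way, so the share of 1.28% does not make the 2 miRNAs rare. The share among bright unnamed probes was not counted.

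Array quality differed between the controls in ways that touch these values. The Hy3 control spots had a median of 682.5 in N2 ground and 1222 in N2 without transport, and of 509 and 681 in LS292. On the ground arrays, 9.44% and 10.7% of spots lay more than 50 under their surroundings, against 3.30% and 8.06% on the no-transport arrays. They were not spread evenly. Each probe has 1 spot in each of 4 sets of 12 blocks. On the ground arrays sets 3 and 4 held most of them, 14.8% and 14.4% of spots in N2 and 19.4% and 18.7% in LS292. On the LS292 no-transport array it was set 1, with 21.3%. The part of these differences in the values above was not tested beyond the medians that follow.

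Among the 20 miRNAs, 6 spots of set 4 in N2 ground and 5 in LS292 ground lay below -50, including the let-7 spots at -1789 and -108. Without set 4 the medians of the other 3 spots were 491 and 455 for let-7 on the ground and 206 and 309 without transport. For miR-84 they were 178 and 196 against 63 and 56, and for miR-788 21 and 17 against 137 and 132. The order of conditions was therefore the same in both strains for these 3 miRNAs. For others it changed: in LS292, miR-1823 became 89 on the ground against 79 and miR-258 became 116 against 84, so that both were then higher on the ground in each strain. MiR-795 became 14 against 18 in LS292 and 17 against 53 in N2.

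**Figure D5:**
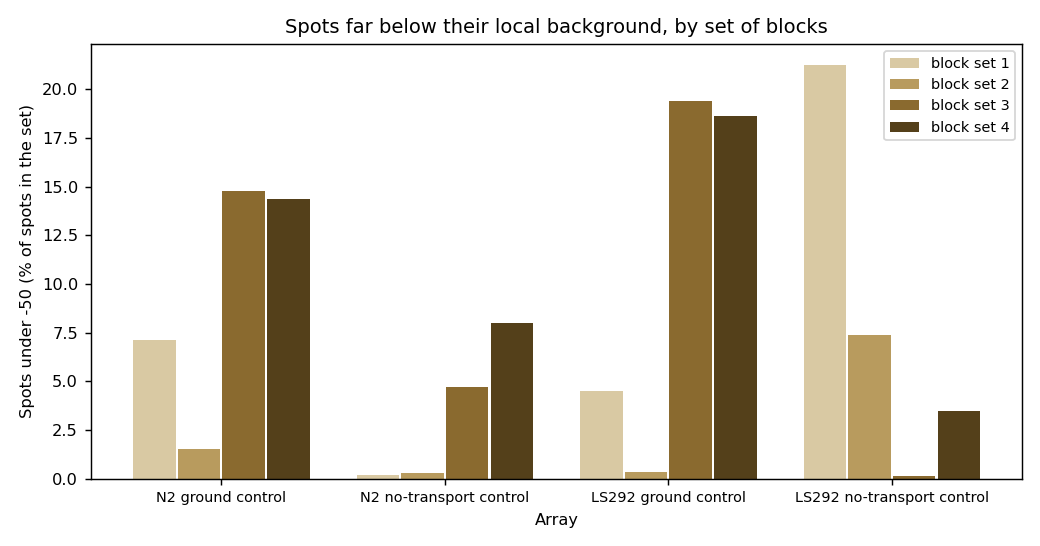
Share of spots whose intensity lay under -50 (y axis, percent of the 2520 spots in a set) in each of the 4 sets of blocks on each of the 4 arrays (x axis). Sets 3 and 4 stand highest on the ground arrays, at 14.4% to 19.4%, and set 1, at 21.3%, on the LS292 no-transport array.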

How the data were processed

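The authors deposited, per the file headers, 2 intensity columns per array for 10080 spots on 8 one-colour arrays: foreground, and foreground less local background. The authors' probe intensity table equals the median of the 4 spots for 100% of probes. Their normalized values (a ratio of intensity to 1 constant per array) and fold changes (a ratio of 2 arrays) were deposited too. Neither scanner nor image software is given in the sources used here.

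For the fit, limma 3.58.1 in R 4.3.3 corrected background by normexp (offset 50). Log2 values were averaged over 4 spots and quantile normalized on the 156 named probes. Probes at 50 or more on 2 or more of 8 arrays (20) entered an additive model of strain and condition with 3 residual degrees of freedom, and adjusted p-values (Benjamini-Hochberg) were held to 0.05. All 20 are named, and so are list members where a list is described; miR-256, miR-265, miR-354 and miR-355 were named after their values were seen. Alternatives changed background correction, normalization, spot summary, filter, prior and arrays; 3 were chosen after seeing the data (leaving out block set 4, and spot medians above the undetected probes, scaled and unscaled). The members and lists were chosen with earlier results of these data known. Within-strain differences had no test. Probe sequences were not used here.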

Additional observations from a re-analysis of the deposited data

Results flagged for a closer look

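Among the miRNAs detected on all 4 arrays, 3 had fitted differences of opposite sign in the 2 strains, ground minus no transport on the normalized log2 scale. MiR-1823 had 0.40 in N2 and -0.05 in LS292. MiR-230 had -0.49 in N2 and 0.26 in LS292. MiR-52 had -0.15 in N2 and 0.02 in LS292, although its spot medians were lower on the ground in both strains (54 against 68, and 53.5 against 86). These differences between strains were not tested, and each rests on 1 array per strain and condition.

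Probes without a name, which the comparisons above do not use, carried signal. An intensity of 50 was reached on each of the 4 arrays by 177 of 2145 unnamed probes (8.25%). These bright probes leaned towards the ground: their median log2 ratio, ground over no transport, was 1.02 for N2 and 0.59 for LS292. Of the 177, 108 were brighter on the ground in both strains and 29 were dimmer in both. Among all 2145 unnamed probes, 1453 were lower on the ground in both strains.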

How the results depend on the processing

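Over 22 alternatives, 332 of 400 fitted differences of 19 miRNAs kept their direction and side of the threshold, 59 turned sign and 9 became called (miR-257, with a difference of exactly 0, ran from -0.60 to 0.026); miR-55, miR-84, miR-787, miR-788 and miR-799 kept their sign wherever tested. The limma count past the threshold, 0, became 1 (miR-788) on the authors' normalized values (adjusted p 0.00437), when high-background spots were left out (0.0141), on the median of spots (0.0233), on scaled spot medians (0.0103) and with those above undetected probes (0.0336). It became 2 (miR-788 and miR-84, each adjusted p 0.0458) with the last unscaled; the last pair of settings was chosen after seeing the data. Leaving out 1 array gave counts of 0 to 2, the 2 (miR-55 and miR-258) without the LS292 ground array. The 2-fold count in both strains, 2, was 0 after normexp and quantile normalization, where LS292 differences ran only from log2 -0.46 to 0.30. It was also 0 at a minimum of 100, where the counted miRNAs were too dim to pass. At a minimum of 25, miR-1824 passed beside miR-788 and miR-799. Detected miRNAs at a minimum of 25 were 24 in N2 ground, 21 in LS292 ground, 55 in N2 without transport and 28 in LS292 without transport. At 100 they were 11 in N2 ground, 6 in LS292 ground, 8 in N2 without transport and 6 in LS292 without transport. The median difference over the 20 was 0.03, and it was -0.13 under median scaling and -0.64 on the authors' values.

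Sign changes, as log2 ground minus no transport, were these; the cause was not tested. On the authors' normalized values, the difference was -0.33 for miR-124, -0.77 for miR-237, -1.93 for miR-1824, -0.25 for miR-796, 0.038 for miR-230, -0.68 for miR-56 and -0.55 for miR-795. With plain background subtraction, the difference was -3.01 for let-7. With the median of spots, the difference was -0.059 for miR-1824 and 0.045 for miR-230. With median scaling, the difference was -0.071 for miR-124, -0.16 for let-7, -0.071 for miR-237, -0.078 for miR-1824, -0.047 for miR-796, -0.11 for miR-1823, -0.035 for miR-56 and -0.064 for miR-795. With quantile normalization over all probes, the difference was -0.023 for miR-124, -0.34 for let-7, -0.0056 for miR-237, -0.0073 for miR-1824 and -0.053 for miR-1823. With scaled spot medians, the difference was -0.20 for miR-124, -0.41 for miR-237, -0.88 for miR-1824, -0.18 for miR-796, -0.44 for miR-56 and -0.36 for miR-795. Without high-background spots, the difference was -0.059 for miR-1824, 0.12 for miR-230, 0.0066 for miR-255 and -0.063 for miR-56. Without the spots of block set 4, the difference was -0.015 for miR-1823, 0.18 for miR-230, -0.0059 for miR-795 and -0.10 for miR-81. With scaled spot medians above the undetected probes, the difference was -0.081 for miR-237, -0.56 for miR-1824, 0.087 for miR-230 and -0.19 for miR-56. With the same medians unscaled, the difference was -0.29 for miR-1824, 0.48 for miR-230 and 0.0085 for miR-73. With 1 array left out, differences that changed sign ran from -0.19 to 0.35 for let-7, -0.17 to 0.52 for miR-1823, -0.047 to 0.091 for miR-1824, -0.47 to 0.24 for miR-230, -0.020 to 0.079 for miR-237, -0.13 to 0.94 for miR-258, -0.20 to 0.072 for miR-52, -0.032 to 0.24 for miR-56, -0.33 to 0.049 for miR-73, -0.052 to 0.12 for miR-795 and -0.033 to 0.52 for miR-81. The strain term pairs the arrays of the conditions; 0 were called with it, with it on the 4 arrays alone, and without it. A dim probe near the minimum of 50 limits every ratio here.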

Other observations

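Among named miRNAs outside the 20, 6 were detected on a single array of the 4. On the N2 ground array alone miR-256 measured 123, miR-265 measured 108.5, lsy-6 measured 101 and miR-82, a relative of miR-58, measured 72. On the N2 no-transport array alone miR-354 measured 115 and miR-355 measured 81.5. On the LS292 arrays of these controls the highest value among these 6 was 48, for miR-82 without transport. All 6 thus came from N2.

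The genes of miR-81 and miR-82 are neighbours in the RefSeq annotation. MiR-82 measured 72 and 26 on the ground arrays of N2 and LS292 and 47 and 48 without transport, and miR-81 measured 151.5 and 133.5 against -24 and 144.

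In N2 the ground excess of the bright unnamed probes was larger in brighter probes. When the 177 probes were divided into 3 equal parts of 59 by mean log2 intensity, the median log2 excess on the ground was 0.35 in the dimmest part, 0.93 in the middle and 1.43 in the brightest. In LS292 the medians were 0.56, 0.69 and 0.58, without such an order. Of the 177, 43 were 2-fold higher and 5 were 2-fold lower on the ground in both strains. After each strain's median ratio was subtracted, these counts were 13 and 14, so the balance depends on the centring.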
